A study of Mus musculus with 20 samples.

Results

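The livers of mice with minor trauma were compared with the livers of non-manipulated control mice, by the 3 arrays labelled minor trauma and the 5 arrays labelled control. These are 8 of the 20 arrays of a mouse study of hemorrhagic shock, chosen by their titles. All 20 hold whole-liver RNA, from C57BL/6 males 8 to 12 weeks of age, hybridised to the Affymetrix Mouse430_2 array. The other groups had severe trauma and hemorrhagic shock lasting 1.5 h, with 4 arrays at its end, 4 after a further 1 h of resuscitation and 4 after 4.5 h of it. The groups are described as anesthetized and surgically treated, apart from controls that were not manipulated. What the minor trauma consisted of, the anesthetic, the time between it and sampling, and the time of day are not given in the sources used here, so trauma, anesthesia and handling cannot be told apart. The labels number the arrays within a group without stating that each is a separate animal, so the p values measure the spread between these samples. Values are the authors' microarray signals on the scale log2(signal + 6), quantile normalized, on which the median of every array is 4.60. A difference of 1 on this scale is a doubling for bright genes and understates the change of dim ones.

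The liver answers injury elsewhere in the body largely through secreted signals. Interleukin-1 and interleukin-6 reach hepatocytes and, through NF-kB, STAT3 and C/EBP factors, raise the acute phase proteins, while adrenal glucocorticoids act through the glucocorticoid receptor on metabolic genes and on the metallothioneins, small zinc-binding proteins. The nuclear receptors CAR and PXR, activated by many drugs and some endogenous compounds, control cytochromes P450 and other enzymes of drug clearance. Whole liver is mostly hepatocyte RNA, and in such bulk samples fewer cells of a type and less RNA per cell cannot be told apart.

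The array labelled control 5 stood apart from the other control arrays. Across all genes tested it correlated with the other 4 control arrays at a mean r of 0.963 and with the 3 minor trauma arrays at 0.969, whereas control arrays 1 to 4 correlated with minor trauma at 0.943 to 0.954. Its closest array was minor trauma 2 (r = 0.983), and it was in turn the closest array to minor trauma 1 and to minor trauma 2. These correlations are across genes, which are not independent replicates. To place each control array without using it, genes were called with that array left out, and the left-out array was then put on a line on which 0 is the mean of the other control arrays and 1 is the mean of minor trauma. Control 5 lay at a median position of 0.78 over 1220 genes (interquartile range 0.56 to 0.99), and it was past the midpoint for 974 of them (79.8%). Control arrays 1 to 4 lay at -0.08, -0.21, 0.03 and 0.12. The same measure placed minor trauma 1 at 0.40 and minor trauma 2 at 0.35, and gave no value for minor trauma 3, without which no gene was called. Counts of genes, and the changes of the genes that results turn on, are therefore given with all 8 arrays and again without control 5. Control 5 was left out because it resembled minor trauma in these same data. That choice by itself favours more calls, larger changes, less overlap and smaller p values in the fit without it.

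**Figure D1:**
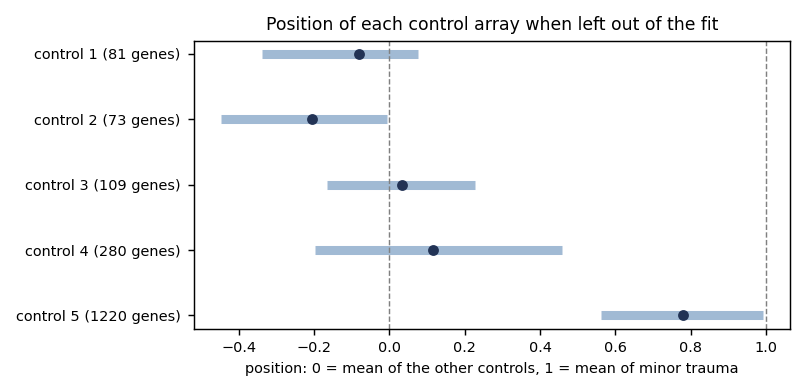
Position of each control array when it was left out of the fit. The x axis (no unit) runs from the mean of the remaining control arrays at 0 to the mean of the 3 minor trauma arrays at 1; points are medians and bars interquartile ranges over the genes called without that array, whose number stands beside each name. Control 5 lies at 0.78 and control arrays 1 to 4 between -0.21 and 0.12.

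Minor trauma 3 was the other array that differed from its group. Its array weight, a measure of how well an array follows its group mean, was 0.177, the lowest of the 8. It lay more than 1 log2 unit below both other minor trauma arrays for 748 genes and above both for 83. The corresponding numbers were 124 and 35 for minor trauma 1, and 129 and 45 for minor trauma 2. Among the genes called lower in minor trauma 33 had minor trauma 3 below both others by this distance, and none had either other array so. The 3' to 5' ratios of Gapdh and of beta-actin, the deposited median signal and the dap spike-in signal gave exact two-sided permutation p values of 0.5 to 0.714 between the 3 minor trauma and 5 control arrays (0.714 each after Benjamini-Hochberg adjustment over the 4). That spike-in, a bacterial transcript added to the RNA, had deposited signals of 425 to 2075 on control 2 and 4 and minor trauma 1 and 3, and of 0.354 to 1.43 on the other 4 of these arrays.

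With all arrays, 441 of 12832 genes tested were called (3.44%), 265 higher (2.07%) and 176 lower (1.37%) in minor trauma, at an adjusted p of at most 0.05 by limma with Benjamini-Hochberg adjustment. Of these, 169 changed by at least 2-fold (1.32%). Higher genes made up 60.1% of the calls on this scale, 89.4% of 724 after median centring and 94.8% of 231 on the signals as deposited, where the median log2 change over all genes was 0.14 and 0.20 in place of 0.00. Without control 5, 1220 of 12800 genes were called (9.53%), 665 higher (5.20%) and 555 lower (4.34%), and 377 of them changed at least 2-fold (2.95%). All 265 higher genes and 175 of the 176 lower ones were called in both fits, and 429 of these 440 had a larger change without control 5. A further 780 genes were called only without it, 400 higher and 380 lower. All 3 minor trauma arrays lay above all 5 control arrays for 484 genes (3.77%) and below them for 456 (3.55%); against control arrays 1 to 4 these numbers were 1103 (8.60%) and 1084 (8.45%). Among the 441 called genes 279 did not overlap between the groups, and of the 162 that did, 151 no longer overlapped once control 5 was left out.

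The calls made with all arrays rest on few samples. Leaving out minor trauma 3 ended every call (1684 of 12768 genes had an unadjusted p under 0.05), leaving out control 1, 2, 3 or 4 left 81, 73, 109 or 280 calls, and leaving out minor trauma 1 or 2 gave 931 or 855. Of the 441 genes, 65 were called whichever single array other than minor trauma 3 was left out. Without control 5 the calls depended less on single arrays, though many were still lost. Of the 440 genes called in both fits, 349 stayed called with each of the 7 remaining arrays left out in turn. These 440 are only part of the 1220 genes called without control 5. Of the 1220, 655 stayed called in the same direction without minor trauma 3 and 777 without control 2. Leaving out any other single array kept 878 to 1065 of them. With control 5 and minor trauma 3 both absent, 796 genes were called, including those 655. Within the set of arrays with a high dap reading, in which 2 control arrays (2 and 4) faced 2 minor trauma arrays (1 and 3), 208 genes were called. In the low set, 3 control arrays including control 5 faced minor trauma 2 alone, which is assumed to vary like the other groups, and 0 genes were called with control 5 (714 of 11973 at an unadjusted p under 0.05) and 162 without it.

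**Figure D2:**
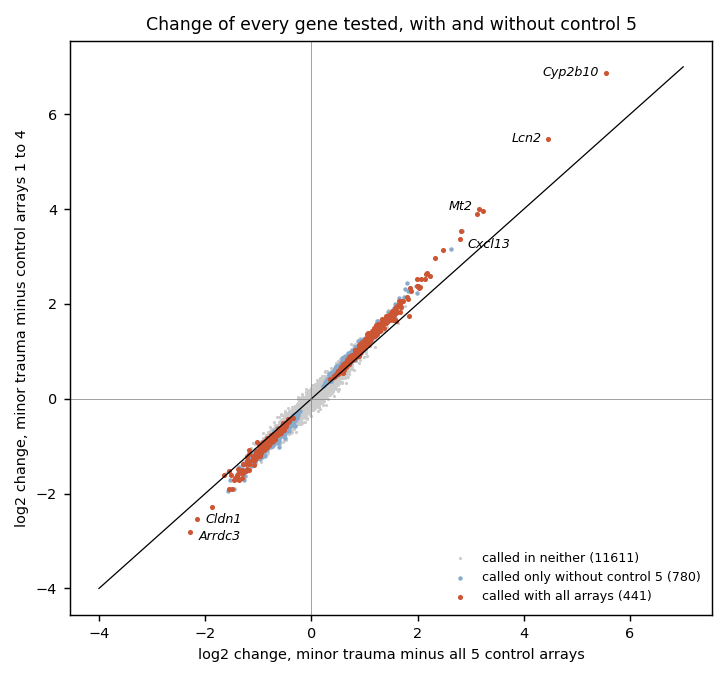
Change of each gene tested with all arrays (x axis, log2 change, minor trauma minus all 5 control arrays) and without control 5 (y axis, log2 change, minor trauma minus control arrays 1 to 4); each point is a gene and the line marks equal change. The 441 genes called with all arrays lie mostly farther from 0 on the y axis than on the x axis, and 780 genes were called only without control 5.

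Among called genes, leaving out those known only by clone or locus names, the largest change was in Cyp2b10, a cytochrome P450 that is the classical target of CAR. It read 5.91, 4.72, 3.82 and 6.14 on control arrays 1 to 4, 11.83 on control 5, and 11.45, 12.26 and 12.36 on the minor trauma arrays. The first 4 control arrays were thus near the array median, and control 5 was within the range of minor trauma. The log2 change was 5.54 ± 1.04 (SE, 3 against 5 arrays, limma adjusted p = 0.0151) and 6.88 ± 0.44 without control 5 (adjusted p = 1.37e-08), a 118-fold difference on this scale. Within the high dap set, which holds neither control 5 nor minor trauma 2, it was 6.49 (adjusted p = 0.00025). The probe set for this gene carries the suffix that marks probes shared between related transcripts, so part of the signal could belong to a close Cyp2b relative.

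Over all genes tested 2.07% were called higher and 1.37% lower, or 5.20% and 4.34% without control 5. These are the shares to set beside each list below. Of 34 genes tested in the list of CAR, PXR and their partners and targets, 5 were called higher and 1 lower (9 and 1 without control 5), with a median log2 change of 0.05 against 0.00 over all genes. The 5 were Cyp2b10, Gadd45b, Gstt3, Cyp3a13 and the PXR gene Nr1i2 itself, and the lower one was the glucuronosyltransferase gene Ugt2b35 (-0.57 ± 0.13, adjusted p = 0.0257; -0.68 ± 0.11 without control 5). Nr1i2 read 6.96 to 7.79 on the control arrays, with control 5 highest, and 7.71 to 8.39 in minor trauma (0.86 ± 0.22, adjusted p = 0.0338; 0.99 ± 0.21 without control 5). Cyp3a13, a cytochrome P450 of steroid and drug oxidation, rose by 0.93 ± 0.22 (adjusted p = 0.0262; 1.11 ± 0.18 without control 5), and Gstt3, a glutathione transferase, by 1.23 ± 0.28 (adjusted p = 0.0234; 1.37 ± 0.27 without control 5), with every minor trauma array above every control array for Gstt3. Cyp2c55, called only without control 5, changed by 1.61 ± 0.34 there (adjusted p = 0.00406). Alas1, the rate-limiting enzyme of heme synthesis, which supplies the cofactor of the cytochromes P450, read 10.35, 8.29, 10.67 and 12.02 on control arrays 1 to 4, 12.63 on control 5 and 12.88, 12.78 and 12.90 in minor trauma. Its minor trauma arrays lay close together above a wide control range (2.06 ± 0.56, adjusted p = 0.0462; 2.52 ± 0.48 without control 5, adjusted p = 0.0021). It was the only called gene of 14 tested in heme synthesis and breakdown; without control 5 the coproporphyrinogen oxidase gene Cpox (0.66 ± 0.19, adjusted p = 0.0324) and the heme oxygenase gene Hmox1 (1.48 ± 0.39, adjusted p = 0.0186) were called as well. The call of Cpox was lost when control 2 or 3 or minor trauma 2 or 3 was also left out, and that of Hmox1 without minor trauma 3.

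**Figure D3:**
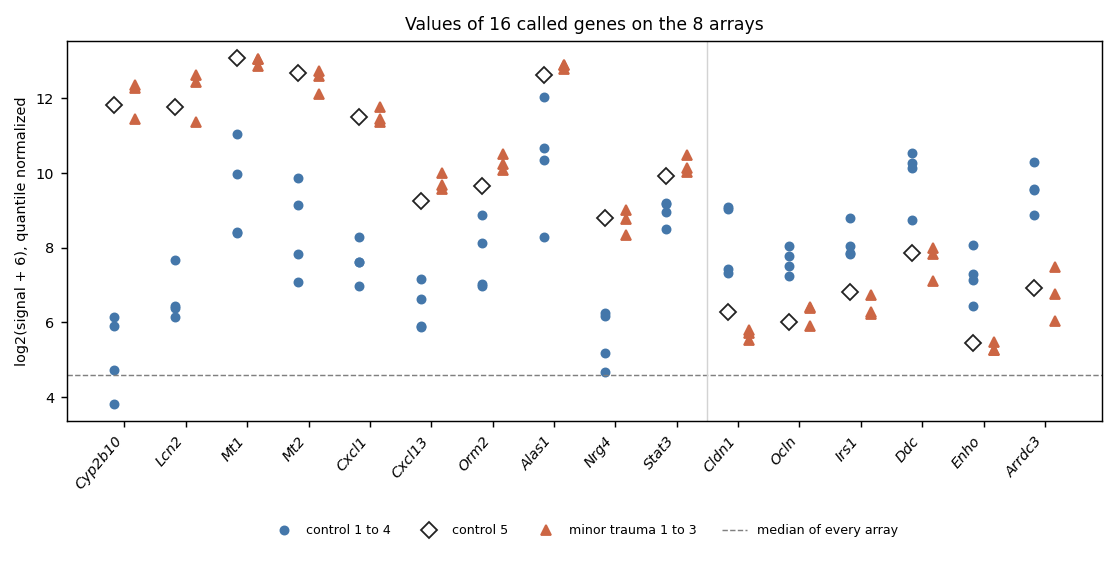
Values of 16 called genes on each of the 8 arrays, as log2(signal + 6) after quantile normalization (y axis). Circles are control arrays 1 to 4, the open diamond is control 5, triangles are minor trauma arrays 1 to 3, and the dashed line is the array median of 4.60; genes left of the vertical line were higher in minor trauma and those right of it lower. For Cyp2b10 control 5 reads 11.83 beside minor trauma values of 11.45 to 12.36, and control arrays 1 to 4 read 3.82 to 6.14.

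The metallothionein genes Mt1 and Mt2 rose. Mt1 read 9.97, 8.40, 8.42 and 11.04 on control arrays 1 to 4, 13.08 on control 5 and 13.04, 13.06 and 12.86 in minor trauma. Mt2 read 9.16, 7.08, 7.84 and 9.86, then 12.68 on control 5, and 12.61, 12.72 and 12.11 in minor trauma. Control 5 was as high as minor trauma for both, and control 1 and 4 were above control 2 and 3. The change was 2.81 ± 0.64 for Mt1 (adjusted p = 0.0234; 3.54 ± 0.39 without control 5, adjusted p = 2.54e-05). It was 3.16 ± 0.71 for Mt2 (adjusted p = 0.0229; 4.0 ± 0.39 without control 5, adjusted p = 8.04e-06). Slc39a14, which encodes the zinc and iron importer ZIP14, rose by 1.60 ± 0.30 (adjusted p = 0.0151; 1.93 ± 0.19 without control 5). It read 9.49, 8.88, 9.09, 8.79 and 10.72 on the control arrays and 10.75, 10.92 and 11.30 in minor trauma, so the groups did not overlap, though control 5 came close to minor trauma 1. Its relative Slc39a8, encoding the importer ZIP8, fell by 0.42 (SE 0.11, adjusted p = 0.037; -0.44 ± 0.12 without control 5); without control 5 its call was lost when control 1 or minor trauma 1 was also left out. Another probe set of Slc39a8 changed by 0.10 and was not called. These 4 were the called genes among 9 tested in the metallothionein and zinc transporter list.

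The promoters of these genes are shown because Mt1 and Mt2, neighbours on chromosome 8, moved together. Metallothionein promoters are known for metal response elements, bound by the zinc-sensing factor MTF-1. The windows are the 250 bases before the annotated start in RefSeq, build GRCm38.p6, plus strand, at chr8:94178839-94179088 for Mt1 and chr8:94172368-94172617 for Mt2, with matches in capitals.
Mt1: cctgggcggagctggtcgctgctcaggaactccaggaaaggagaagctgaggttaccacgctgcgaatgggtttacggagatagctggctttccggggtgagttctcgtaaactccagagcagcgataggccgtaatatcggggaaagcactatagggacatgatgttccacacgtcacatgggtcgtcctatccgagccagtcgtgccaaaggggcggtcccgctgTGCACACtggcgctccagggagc
Mt2: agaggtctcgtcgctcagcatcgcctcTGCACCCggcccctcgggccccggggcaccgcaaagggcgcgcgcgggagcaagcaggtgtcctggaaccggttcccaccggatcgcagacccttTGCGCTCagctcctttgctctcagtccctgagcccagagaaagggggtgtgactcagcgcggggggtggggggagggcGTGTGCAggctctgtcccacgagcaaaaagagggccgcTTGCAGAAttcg
Capitals mark the core of the metal response element, searched on both strands as TGCGCNC and TGCACNC, and in Mt2 also a C/EBP dimer site, searched as TTGCNNAA. The Mt1 window held 1 match of TGCACNC and none of TGCGCNC. The Mt2 window held 2 of TGCACNC, 1 of TGCGCNC and 1 C/EBP match. Over 32851 promoter windows of the same length 12.5% held TGCGCNC, 10.4% TGCACNC and 9.56% TTGCNNAA. A match describes letters in a window and is not a measured site. Bases outside the windows, including those after the annotated start, were not searched, so elements there are not counted.

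Acute phase proteins, the plasma proteins that hepatocytes secrete more of after injury, were the list with the most genes called higher when all arrays were used. Of 25 tested 11 were called higher and 0 lower (15 and 0 without control 5, beside 16 higher in the glucocorticoid list), and their median log2 change was 0.68. Lcn2, encoding lipocalin 2, a siderophore-binding protein that withholds iron from bacteria, read 6.38, 6.44, 7.67 and 6.15 on control arrays 1 to 4, 11.78 on control 5 and 11.37, 12.62 and 12.43 in minor trauma. The 4 lower control arrays and the 4 higher arrays were separated by more than 3 log2 units. The change was 4.46 ± 0.86 (adjusted p = 0.0151) and 5.49 ± 0.47 without control 5 (adjusted p = 1.75e-06), and 5.65 within the high dap set (adjusted p = 9.97e-05).

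Orm2 and Orm3, genes of the orosomucoids, abundant carrier glycoproteins, rose without overlap between the groups. Orm2 read 8.12, 6.98, 8.88, 7.04 and 9.66 on the control arrays and 10.23, 10.51 and 10.07 in minor trauma (2.14 ± 0.44, adjusted p = 0.0178; 2.52 ± 0.37 without control 5). Orm3 read 5.52, 4.20, 6.00, 5.13 and 7.04, and 8.15, 8.07 and 7.21 (2.23 ± 0.43, adjusted p = 0.0151; 2.60 ± 0.36 without control 5). Control 5 was the highest control for each, and for Orm3 minor trauma 3 was just above it. The 2 genes are close paralogs, so their probe sets may share signal. The protease inhibitor gene Serpina3n rose by 1.66 ± 0.33 (adjusted p = 0.0156; 2.01 ± 0.24 without control 5), the metalloreductase gene Steap4 by 1.71 ± 0.43 (adjusted p = 0.0348; 2.06 ± 0.38 without control 5) and Apcs, encoding serum amyloid P, a mouse pentraxin, by 1.18 ± 0.27 (adjusted p = 0.0244; 1.50 ± 0.16 without control 5). On control 5 Apcs read 12.20, inside the minor trauma range of 11.98 to 12.36 and above 10.44 to 10.91 on the other control arrays. Smaller rises were called for Serpina10, Saa4, Lrg1, Lbp and Itih4, between 0.35 and 0.84 (0.41 to 1.04 without control 5); Lbp had an adjusted p of 0.05 and lost its call when control 1, 2, 3 or 4 or minor trauma 2 or 3 was left out. The main serum amyloid A genes were not called with all arrays. Saa1 read 9.45 to 12.30 on control arrays 1 to 4, 13.16 on control 5 and 13.15 to 13.19 in minor trauma (1.82 ± 0.58, adjusted p = 0.0794; 2.28 ± 0.51 without control 5, adjusted p = 0.00723), and Saa2 changed by 2.83 ± 0.81 (adjusted p = 0.0557; 3.53 ± 0.67 without control 5, adjusted p = 0.00202). Their probe sets are of the kinds that cross-hybridise within a family, so the 2 genes cannot be separated.

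C/EBP factors and STAT3 are the textbook activators of acute phase promoters, and the windows of the genes with the largest rises are shown for that reason, 250 bases before the start in build GRCm38.p6. Lcn2 lies on the minus strand at chr2:32387740-32387989, and Orm2 and Orm3 on the plus strand at chr4:63362199-63362448 and chr4:63355908-63356157. Cyp2b10, on the plus strand at chr7:25897408-25897657, is shown with them as the named gene with the largest change.
Lcn2: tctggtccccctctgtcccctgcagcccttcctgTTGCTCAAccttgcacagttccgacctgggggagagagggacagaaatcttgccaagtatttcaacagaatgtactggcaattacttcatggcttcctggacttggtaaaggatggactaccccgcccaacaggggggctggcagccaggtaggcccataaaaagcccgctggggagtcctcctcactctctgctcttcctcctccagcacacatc
Orm2: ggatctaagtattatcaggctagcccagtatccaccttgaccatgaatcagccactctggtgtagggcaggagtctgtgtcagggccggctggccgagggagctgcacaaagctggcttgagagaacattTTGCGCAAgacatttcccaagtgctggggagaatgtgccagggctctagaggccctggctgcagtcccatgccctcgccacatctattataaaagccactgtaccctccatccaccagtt
Orm3: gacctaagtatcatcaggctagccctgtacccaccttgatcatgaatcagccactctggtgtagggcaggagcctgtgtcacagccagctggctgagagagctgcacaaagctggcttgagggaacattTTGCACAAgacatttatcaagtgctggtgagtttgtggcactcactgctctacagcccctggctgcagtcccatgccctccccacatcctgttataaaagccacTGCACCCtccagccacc
Cyp2b10: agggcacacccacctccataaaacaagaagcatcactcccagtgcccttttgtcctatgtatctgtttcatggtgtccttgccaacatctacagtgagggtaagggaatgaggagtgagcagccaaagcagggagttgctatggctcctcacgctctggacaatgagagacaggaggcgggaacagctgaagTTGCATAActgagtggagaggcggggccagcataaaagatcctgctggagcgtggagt
Capitals mark 1 C/EBP match (TTGCNNAA) in each of the 4, and in Orm3 also 1 match of TGCACNC, the search made for the metallothioneins. Of the 11 called acute phase genes 9 had a promoter window in the table, and 5 of those 9 held TTGCNNAA, against 9.56% of all windows. The STAT site TTCNNNGAA was in 3 of the 9, against 7.02%. The lists were chosen with results of these data known, and these shares are descriptions without a test.

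Among the receptors and transducers upstream of those proteins, Il1r1, Myd88 and Stat3 rose. Il1r1, the signalling receptor of interleukin-1, read 7.55, 6.84, 7.06 and 7.58 on control arrays 1 to 4, 9.65 on control 5 and 9.32, 9.71 and 9.76 in minor trauma (1.86 ± 0.46, adjusted p = 0.0322; 2.35 ± 0.33 without control 5). Myd88, its adaptor, changed by 0.90 ± 0.20 (adjusted p = 0.0241; 1.06 ± 0.18 without control 5), and Irak3, an inhibitor of the same pathway, by 0.99 ± 0.26 (adjusted p = 0.0425; 1.21 ± 0.22 without control 5). These were the 3 called among 18 tested interleukin-1 family and inflammasome genes, with or without control 5. Stat3 read 9.21, 9.17, 8.95, 8.51 and 9.91 on the control arrays and 10.02, 10.13 and 10.48 in minor trauma, with no overlap (1.06 ± 0.21, adjusted p = 0.0153; 1.25 ± 0.17 without control 5). In the list of interleukin-6 family ligands, receptors and STAT3 feedback, 5 of 24 were called higher and 1 lower (7 and 1 without control 5). The higher ones were Stat3, Il1r1, Junb, the kinase gene Pim3 (1.34 ± 0.33, adjusted p = 0.0307; 1.61 ± 0.28 without control 5) and Bcl3 (1.39 ± 0.28, adjusted p = 0.0156; 1.59 ± 0.26 without control 5), and the lower one was the kinase gene Jak2 (-0.95 ± 0.23, adjusted p = 0.0289; -1.01 ± 0.24 without control 5), which read 5.15 on minor trauma 3 and 6.22 and 6.58 on the other 2. The 2 other probe sets of Pim3 changed by -0.06 and 1.12, and neither was called. Socs3, the STAT3-induced feedback inhibitor, was called only without control 5 (1.91 ± 0.53, adjusted p = 0.0274), with control 2 at 8.28 inside the minor trauma range of 8.17 to 9.19. With control 5 out, the call of Jak2 was lost without minor trauma 3, and that of Socs3 without control 1 or 3 or minor trauma 2 or 3. Il6 itself was below the array median on all 8 arrays, at 3.21 to 4.32.

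Of 28 NF-kB pathway genes tested, 4 were called higher and 0 lower (8 and 0 without control 5), with a median of 0.35. The 4 were the inhibitor gene Nfkbib (0.67 ± 0.13, adjusted p = 0.0156; 0.70 ± 0.14 without control 5), the TNF receptor gene Tnfrsf1a (0.67 ± 0.16, adjusted p = 0.0289; 0.78 ± 0.15 without control 5), the kinase gene Ikbke (0.94 ± 0.24, adjusted p = 0.0385; 1.01 ± 0.25 without control 5) and the atypical inhibitor gene Bcl3. The adhesion genes Icam1 and Vcam1 and the feedback inhibitor gene Tnfaip3 were called only without control 5, at 1.27 ± 0.30, 1.22 ± 0.28 and 1.30 ± 0.33. With control 5 out, leaving out minor trauma 3 ended the calls of Vcam1 and Ikbke, minor trauma 1 those of Ikbke and Tnfaip3, and control 2 that of Tnfaip3.

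Of 27 chemokine and receptor genes tested, 2 were called higher and 1 lower. Cxcl1, a neutrophil attractant, read 7.62, 8.30, 7.61 and 6.98 on control arrays 1 to 4, 11.50 on control 5 and 11.36, 11.77 and 11.46 in minor trauma. The 4 lower controls formed one group and control 5 another with minor trauma (3.13 ± 0.67, adjusted p = 0.0199; 3.90 ± 0.39 without control 5, adjusted p = 8.04e-06). Cxcl13, which attracts B cells, read 5.88, 5.90, 6.63 and 7.15, then 9.25 on control 5, and 10.01, 9.58 and 9.67 in minor trauma. Here control 5 was just below all 3 minor trauma arrays (2.79 ± 0.54, adjusted p = 0.0151; 3.37 ± 0.38 without control 5, adjusted p = 2.58e-05). Ccl27a fell by 0.85 (SE 0.22, adjusted p = 0.0394; -1.02 ± 0.19 without control 5). Cxcl2, the near relative of Cxcl1, was not called, at 3.50 to 3.97 on control arrays 1 to 4, 4.91 on control 5 and 4.82 to 5.78 in minor trauma (1.19 ± 0.46, adjusted p = 0.144; 1.42 ± 0.46 and 0.0558 without control 5).

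Genes of the glucocorticoid response moved mostly upward. Of 32 tested, 9 were called higher and 2 lower (16 and 3 without control 5), and the median change was 0.84. Besides Mt1, Mt2 and Lcn2, which belong to other lists too, the higher genes included Fkbp5, a receptor-bound immunophilin induced by glucocorticoids, at 8.28, 7.49, 8.31 and 9.22 on control arrays 1 to 4, 9.87 on control 5 and 9.41, 10.09 and 10.61 in minor trauma (1.40 ± 0.38, adjusted p = 0.0462; 1.71 ± 0.33 without control 5). Cebpd and Cebpb, transcription factors that also act on acute phase promoters, rose by 1.88 ± 0.38 (adjusted p = 0.0156; 2.28 ± 0.27 without control 5) and 0.87 ± 0.21 (adjusted p = 0.0307; 1.04 ± 0.18 without control 5). Another probe set of Cebpd changed by 0.21 and was not called, and that of Cebpb changed by 1.19 and was called. Igfbp1, a binding protein for insulin-like growth factors, rose by 1.33 ± 0.36 (adjusted p = 0.0449; 1.62 ± 0.31 without control 5) and Ddit4, an inhibitor of mTORC1, by 1.59 ± 0.35 (adjusted p = 0.0225; 1.82 ± 0.33 without control 5). The receptor gene Nr3c1 fell by 1.04 (SE 0.29, adjusted p = 0.0491; -1.13 ± 0.30 without control 5), and its minor trauma values were 8.11, 8.28 and 6.37; without minor trauma 3 its call was lost in both fits, and without that array and control 5 together the change was -0.52. Arrdc3, an arrestin-like adaptor, fell the most among called genes, leaving out those known only by clone or locus names. It read 10.29, 9.55, 8.87 and 9.57 on control arrays 1 to 4, 6.91 on control 5 and 6.76, 7.48 and 6.04 in minor trauma (-2.28 ± 0.49, adjusted p = 0.0209; -2.81 ± 0.33 without control 5, adjusted p = 3.4e-05).

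Immediate early and growth arrest genes rose in part. Of 34 immediate early genes 4 were called higher and 0 lower (8 and 0 without control 5): Jun (2.02 ± 0.44, adjusted p = 0.0214; 2.34 ± 0.40 without control 5), Fosl2 (1.63 ± 0.35, adjusted p = 0.0213; 1.97 ± 0.26 without control 5), Rhob (1.27 ± 0.22, adjusted p = 0.0151; 1.44 ± 0.19 without control 5) and Junb (0.89 ± 0.24, adjusted p = 0.0439; 1.06 ± 0.22 without control 5). Another probe set of Fosl2 changed by 0.13 and another of Jun by 1.25, and neither was called. Jun, a subunit of the AP-1 transcription factor, read 5.63, 5.88, 5.78, 6.87 and 7.64 on the control arrays and 8.64, 8.10 and 8.41 in minor trauma. Fos, its classical partner, was not called: it read 5.16 to 6.16 on control arrays and 5.90 to 6.40 in minor trauma, a change of 0.31 ± 0.28. Atf3 changed by 0.56 ± 0.27 and was not called either. All 3 Gadd45 genes, stress sensors that activate p38 and JNK kinases, were called. Gadd45b read 3.25, 2.85, 3.02 and 6.14 on control arrays 1 to 4, 7.43 on control 5 and 7.31, 8.47 and 7.52 in minor trauma (3.23 ± 0.70, adjusted p = 0.0213; 3.95 ± 0.51 without control 5). Its 2 other probe sets changed by 0.62 and 3.10, and 1 of them was called. Gadd45a rose by 1.62 ± 0.32 (adjusted p = 0.0151; 1.94 ± 0.23 without control 5) and Gadd45g by 2.18 ± 0.56 (adjusted p = 0.0379; 2.66 ± 0.48 without control 5), the latter with control 2 and control 5 at the level of minor trauma. With the polo-like kinase gene Plk3 (1.79 ± 0.35, adjusted p = 0.0151; 2.14 ± 0.26 without control 5) and the death receptor gene Fas (1.12 ± 0.25, adjusted p = 0.0221; 1.32 ± 0.22 without control 5) they made 5 called higher and 0 lower of 20 tested (7 and 2 without control 5).

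Of 29 genes of the unfolded protein and integrated stress responses, 4 were called higher and 0 lower (9 and 1 without control 5). The 4 included Ddit4, described above. Atf4, the transcription factor of the integrated stress response, rose by 0.69 ± 0.15 without overlap (adjusted p = 0.0219, and 0.83 ± 0.12 without control 5), its target Chac1, which degrades glutathione, by 1.59 ± 0.34 (adjusted p = 0.021; 1.83 ± 0.32 without control 5), and the endoplasmic reticulum co-chaperone gene Dnajb9 by 1.06 ± 0.28 (adjusted p = 0.0439; 1.38 ± 0.18 without control 5). Dnajb9 read 9.40 to 9.91 on control arrays 1 to 4 and 11.27 on control 5, beside 10.71 to 11.29 in minor trauma. Bhlha15, a transcription factor of secretory cells that is in none of the lists, was below the array median on control arrays 1 to 4 (3.23 to 3.71), at 5.30 on control 5 and at 5.53 to 5.94 in minor trauma (2.0 ± 0.42, adjusted p = 0.0189; 2.39 ± 0.33 without control 5).

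In lipid handling, 3 of 16 lipid droplet and lipolysis genes were called higher and 0 lower (7 and 0 without control 5). Pnpla2, the adipose triglyceride lipase, read 8.17, 8.11, 8.20, 8.76 and 8.89 on the control arrays and 9.37, 9.08 and 9.93 in minor trauma (1.03 ± 0.20, adjusted p = 0.0151; 1.15 ± 0.19 without control 5). Mgll, which splits the last ester bond, rose by 0.76 ± 0.18 (adjusted p = 0.0273; 0.82 ± 0.19 without control 5). Cidec, a droplet fusion protein, was below the array median on all control arrays and reached 4.87, 5.57 and 6.81 in minor trauma, at least 2.22-fold higher against that median (adjusted p = 0.0309); without control 5 its call was lost when minor trauma 3 was left out. Thrsp, a promoter of fatty acid synthesis, rose by 1.41 ± 0.37 (adjusted p = 0.0424; 1.75 ± 0.30 without control 5). It was the only called gene of 24 in fatty acid and triglyceride synthesis, beside 3.44% of all genes tested. Cholesterol and bile acid genes were called only without control 5. There 6 of 21 cholesterol genes and 8 of 27 bile acid genes were lower and 0 of either higher, beside 0 and 0 with all arrays. They included Hmgcs1, of cholesterol synthesis (-1.14 ± 0.34, adjusted p = 0.0372), Abcb11, the bile salt export pump (-0.79 ± 0.23, adjusted p = 0.0319), and Fgfr4, the receptor through which FGF15 represses bile acid synthesis (-0.79 ± 0.12, adjusted p = 0.000264). Fgfr4 read 6.55 to 6.73 on control arrays 1 to 4, 5.63 on control 5 and 5.78 to 5.89 in minor trauma. Control 5 was thus the lowest of the 8 arrays. Of these, the call of Hmgcs1 was lost when control 1 or 2 or minor trauma 3 was also left out. That of Abcb11 was lost without control 1, 2 or 3 or minor trauma 2 or 3, and control 4, at 10.17, lay below minor trauma 1 and 2.

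With all arrays, the list with the most genes called lower was that of cell junctions: 4 of 18 tight and gap junction genes were lower and 1 higher (8 and 4 without control 5), with a median change of -0.34. Cldn1, encoding the tight junction strand protein claudin-1, read 9.08, 9.05, 7.42 and 7.33 on control arrays 1 to 4, 6.27 on control 5 and 5.79, 5.54 and 5.72 in minor trauma, so that all 3 minor trauma arrays lay below every control (-2.15 ± 0.42, adjusted p = 0.0151; -2.54 ± 0.33 without control 5, adjusted p = 7.2e-05). Ocln, encoding occludin, read 7.51, 7.78, 7.25 and 8.04, then 6.02 on control 5, and 5.92, 6.40 and 6.42 (-1.07 ± 0.28, adjusted p = 0.0416; -1.40 ± 0.17 without control 5, adjusted p = 3.53e-05). Other probe sets of Cldn1 and Ocln changed by -0.98 and -0.87 and were not called. The scaffold genes Cgn (cingulin) and Tjp3 (ZO-3) fell by 1.01 (SE 0.23, adjusted p = 0.0234; -1.20 ± 0.19 without control 5) and 1.18 (SE 0.32, adjusted p = 0.0479; -1.38 ± 0.31 without control 5), both without overlap. The gap junction gene Gjb2, connexin 26, moved the other way, from 11.11 to 11.70 on control arrays to 11.77 to 11.98 in minor trauma (0.51 ± 0.11, adjusted p = 0.021; 0.59 ± 0.10 without control 5). Without control 5 the tight junction genes Cldn3, Marveld2 and Cldn12 and the cadherin gene Cdh1 were also lower, and Gja1, Jam2 and Cldn14 higher. The calls of Cldn12, Cdh1 and Jam2 were each lost under at least 4 of the 7 further single-array omissions, and that of Cldn14 without minor trauma 3.

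Genes of insulin action and secreted hepatic factors changed in both directions. Irs1, the insulin receptor substrate, read 8.06, 8.80, 7.83, 7.85 and 6.83 on the control arrays and 6.73, 6.22 and 6.28 in minor trauma (-1.46 ± 0.33, adjusted p = 0.0229; -1.72 ± 0.29 without control 5). Enho, encoding the peptide adropin, read 7.14, 7.29, 8.08 and 6.43, then 5.46 on control 5, and 5.46, 5.26 and 5.27 (-1.55 ± 0.40, adjusted p = 0.037; -1.90 ± 0.33 without control 5). Control 5 was at the level of minor trauma for this gene. Of the 2 other probe sets of Enho, 1 changed by -1.59 and was called, and 1 changed by 0.015 and was not. Nrg4, a secreted ligand of the ErbB4 receptor, went up, from 5.19, 4.68, 6.25 and 6.18 on control arrays 1 to 4 to 8.78, 9.01 and 8.33 in minor trauma, with control 5 at 8.81 (2.49 ± 0.54, adjusted p = 0.0214; 3.13 ± 0.30 without control 5, adjusted p = 7.87e-06). In the list of the insulin, growth hormone and IGF axis 2 of 28 were higher, Nrg4 and Igfbp1, and 2 lower, Irs1 and Enho (4 and 3 without control 5). Ppargc1a, a coactivator of gluconeogenesis and mitochondrial genes, fell by 1.02 (SE 0.27, adjusted p = 0.0399; -1.19 ± 0.26 without control 5) without overlap. It was the only called gene of 28 in gluconeogenesis, a share near the 3.44% of all genes tested. G6pc, glucose-6-phosphatase, changed by 1.15 ± 0.34 (adjusted p = 0.0606; 1.21 ± 0.36 and 0.0357 without control 5, lost again without control 1 or 2 or minor trauma 3).

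Several other genes fell. Ddc, the decarboxylase that makes dopamine and serotonin, fell by 1.86 (SE 0.45, adjusted p = 0.03; -2.28 ± 0.37 without control 5), Gclc, the rate-limiting enzyme of glutathione synthesis, by 1.36 (SE 0.33, adjusted p = 0.031; -1.72 ± 0.23 without control 5) and Sgms2, a sphingomyelin synthase, by 1.28 (SE 0.27, adjusted p = 0.0189; -1.57 ± 0.18 without control 5). Sgms2 read 8.55, 8.66, 8.17 and 8.57 on control arrays 1 to 4, 7.05 on control 5 and 6.92, 7.04 and 6.81 in minor trauma. Another probe set of Sgms2 changed by -0.35 and was not called. Lgr5, the R-spondin receptor of pericentral hepatocytes, fell by 1.40 (SE 0.28, adjusted p = 0.0162; -1.64 ± 0.24 without control 5). It was the only called gene of 22 in the list of Wnt signalling and pericentral genes, beside 3.44% of all genes tested. The protein kinase D3 gene Prkd3 fell by 1.39 (SE 0.24, adjusted p = 0.0151; -1.58 ± 0.22 without control 5), and its 5 controls (8.44 to 9.62) did not overlap with minor trauma (7.21 to 8.26). A different pattern was seen in Acbd5, a peroxisomal acyl-CoA binding protein, which read 10.63 to 10.97 on control arrays 1 to 4, 10.23 on control 5, 10.16 on minor trauma 2 and 7.74 on minor trauma 3, with minor trauma 1 close to minor trauma 2. It was called (-1.37 ± 0.34, adjusted p = 0.0329; -1.48 ± 0.36 without control 5), but without control 5 and minor trauma 3 the change was -0.70 (adjusted p = 0.00803). Evi5, called in both fits, and Zfp946 and Pnisr, called only without control 5, had the same shape, with minor trauma 3 more than 2 log2 units below the other 2 arrays. The calls of Zfp946 and Pnisr were lost without minor trauma 3 or any of control 1 to 4.

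Gnat1 and Tacc2, which belong to none of the lists, rose without overlap. Gnat1, the rod transducin subunit known from photoreceptors, read 4.74, 5.09, 6.09, 5.21 and 6.87 on the control arrays and 7.43, 7.31 and 8.19 in minor trauma (2.04 ± 0.36, adjusted p = 0.0151; 2.36 ± 0.29 without control 5). Tacc2, a centrosomal coiled-coil protein, read 7.34, 7.37, 6.91, 7.0 and 8.61, and 8.66, 9.41 and 9.71 (1.82 ± 0.34, adjusted p = 0.0151; 2.11 ± 0.29 without control 5). Control 5 was the highest control for both and lay below the lowest minor trauma array, narrowly so for Tacc2. The genes called only without control 5 with the largest rises included Saa2, the lysophospholipid transporter gene Mfsd2a (3.15 ± 0.68, adjusted p = 0.00527) and the galactosyltransferase gene B3galt1 (2.44 ± 0.29, adjusted p = 3.44e-05). B3galt1 read 6.61 to 7.70 on control arrays 1 to 4, 10.19 on control 5 and 9.18, 10.21 and 8.79 in minor trauma.

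**Figure D4:**
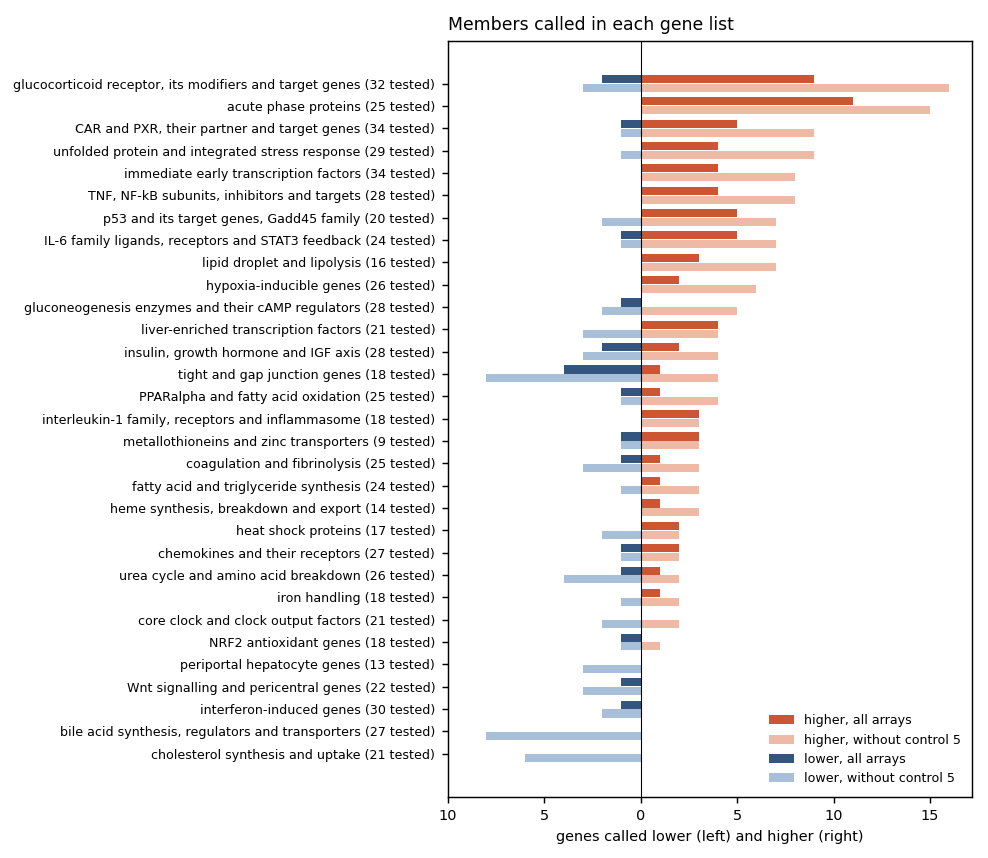
Genes called higher (right) and lower (left) in each gene list with at least 3 calls summed over both fits; the x axis counts genes, dark bars are the fit with all 8 arrays, pale bars the fit without control 5, and the number tested stands beside each name. Acute phase proteins show 11 higher with all arrays and 15 without control 5; cholesterol and bile acid genes show calls, all lower, only without control 5. Over all genes tested 2.07% were higher and 1.37% lower with all arrays, and 5.20% and 4.34% without control 5.

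Other lists held few calls, to be set beside 3.44% of all genes tested with all arrays and 9.53% without control 5. Of 26 hypoxia-inducible genes 2 were higher (6 without control 5), of 17 heat shock protein genes 2 were higher (Bag3 and Hspb8; 2 higher and 2 lower without control 5), and of 30 interferon-induced genes 1 was lower (Gbp6, -1.40 ± 0.33, adjusted p = 0.0273; 2 without control 5). Of 25 genes of PPARalpha and fatty acid oxidation 1 was higher and 1, Ppargc1a, lower (4 and 1 without control 5). Cpt2, a carnitine palmitoyltransferase of the mitochondrial inner membrane, rose by 0.58 ± 0.15 (adjusted p = 0.043; 0.61 ± 0.16 without control 5, lost again without control 2 or 3 or minor trauma 3). Of 25 coagulation genes 1 was higher and 1 lower (3 and 3 without control 5): the thrombomodulin gene Thbd rose by 1.09 ± 0.30 (adjusted p = 0.0494; 1.37 ± 0.25 without control 5), and Klkb1, which encodes plasma prekallikrein, fell by 0.82 (SE 0.18, adjusted p = 0.0219; -0.97 ± 0.16 without control 5). Of 21 core clock and clock output genes and 23 complement genes, 0 were called with all arrays. Without control 5 the clock list had 2 higher and 2 lower, and complement 1 higher. Of 21 liver-enriched transcription factor genes 4 were higher, Cebpd, Cebpb, Gata6 and Creb3l3, and 0 lower; without control 5, 4 were higher and 3 lower (Cebpa, Nr2f6 and Nr5a2), and the list median with all arrays was -0.07. With control 5 out, the call of Nr5a2 was lost without control 1 or 2 or minor trauma 3.

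The hepatocyte markers were present on every array. Signals of different probe sets are not comparable, so each sum below is set only against the same sum on other arrays. The summed signal of 13 tested hepatocyte markers was 103008 to 107377 on control and 107080 to 109913 on minor trauma arrays, and 0 of 13 were called (Tat and Fgb were higher without control 5, Tat not once control 1 or 2 or minor trauma 3 was also out). The sum of 12 tested neutrophil markers was 152 to 493 on control arrays, with control 5 the highest, and 388 to 665 in minor trauma; 2 of the 12 lay below the array median on all 8 arrays. With all arrays the 2 called neutrophil markers were S100a8 and S100a9, the subunits of calprotectin. Without control 5, Hdc was called higher as well, and its call held with each of the 7 remaining arrays left out in turn. S100a8 read 4.04, 3.76, 4.71 and 4.85 on control arrays 1 to 4, 7.53 on control 5 and 7.97, 7.72 and 6.26 in minor trauma (2.33 ± 0.61, adjusted p = 0.0396; 2.97 ± 0.43 without control 5). S100a9 moved alike (1.99 ± 0.55, adjusted p = 0.0494; 2.52 ± 0.43 without control 5), and control 5, at 7.09, was above minor trauma 3, at 6.06. The part of neutrophil RNA in the rise of Cxcl1 or Lcn2 was not tested. Of 14 Kupffer cell and macrophage markers, Marco, a scavenger receptor, was called higher (1.41 ± 0.39, adjusted p = 0.0481; 1.61 ± 0.38 without control 5), while the sum of the 14 ran from 4576 to 7475 on control and from 4898 to 7560 on minor trauma arrays. None of the tested markers of monocytes (8), sinusoidal endothelium (13), stellate cells (14), bile duct (6), T and NK cells (6), B and plasma cells (8), erythroid cells (3), platelets (6), pancreas (4) or skeletal muscle (4) was called with all arrays. Without control 5, endothelial Lyve1 (1.64 ± 0.25, adjusted p = 0.000326) and Bmp2 were called higher and stellate Lrat lower; the call of Lrat was lost without minor trauma 3, and that of Bmp2 without control 1, 2 or 3 or minor trauma 2 or 3. Of 3 adipocyte markers Cidec was called.

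The same genes had their own values in the injured groups, given side by side because all these comparisons share the control arrays. Against control, 399 genes (3.11%) were called at the end of shock, 1272 (9.91%) after 1 h and 4996 (38.9%) after 4.5 h of resuscitation, and 1226 (9.55%) between shock and minor trauma. Cyp2b10 differed from control by 2.28 at the end of shock (adjusted p = 0.266), 3.05 after 1 h (adjusted p = 0.0472) and 4.44 after 4.5 h (adjusted p = 0.00084), beside 5.54 in minor trauma. Mt2 was high in all groups, at 3.05, 3.25 and 3.45 beside 3.16. Between shock and minor trauma its difference was -0.10 ± 0.74 (adjusted p = 0.952).

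Some genes that rose in minor trauma were lower at the end of shock than in minor trauma, by the test of that difference. Gnat1 differed by -2.99 ± 0.37 (shock minus minor trauma, adjusted p = 4.68e-05), Nrg4 by -3.30 ± 0.57 (adjusted p = 0.00127), Cxcl13 by -2.98 ± 0.56 (adjusted p = 0.00252), Orm2 by -2.80 ± 0.46 (adjusted p = 0.000888) and Lcn2 by -3.77 ± 0.90 (adjusted p = 0.0108). For Cyp2b10 the difference was -3.26 ± 1.09 (adjusted p = 0.0617). Cldn1, which fell in minor trauma, was higher in shock by 2.88 ± 0.44 (adjusted p = 0.000457) and Ddc by 2.81 ± 0.47 (adjusted p = 0.00111). All the genes named so far in this paragraph were chosen for large changes on the same minor trauma arrays. That choice by itself favours a difference from shock in the opposite direction. Other genes were higher at the end of shock. Fos was higher in shock than in minor trauma by 4.04 ± 0.29 (adjusted p = 4.62e-08), Atf3 by 4.75 ± 0.28 (adjusted p = 1.41e-09), Il6 by 4.13 ± 0.51 (adjusted p = 3.98e-05) and Jun by 3.18 ± 0.46 (adjusted p = 0.000336). Of the other immediate early genes called in minor trauma, Junb was higher by 1.67 ± 0.25 (adjusted p = 0.000364), while Fosl2 differed by 0.20 ± 0.37 (adjusted p = 0.784) and Rhob by 0.20 ± 0.23 (adjusted p = 0.63). These differences do not use control 5 directly, though all arrays share 1 estimate of the spread.

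**Figure D5:**
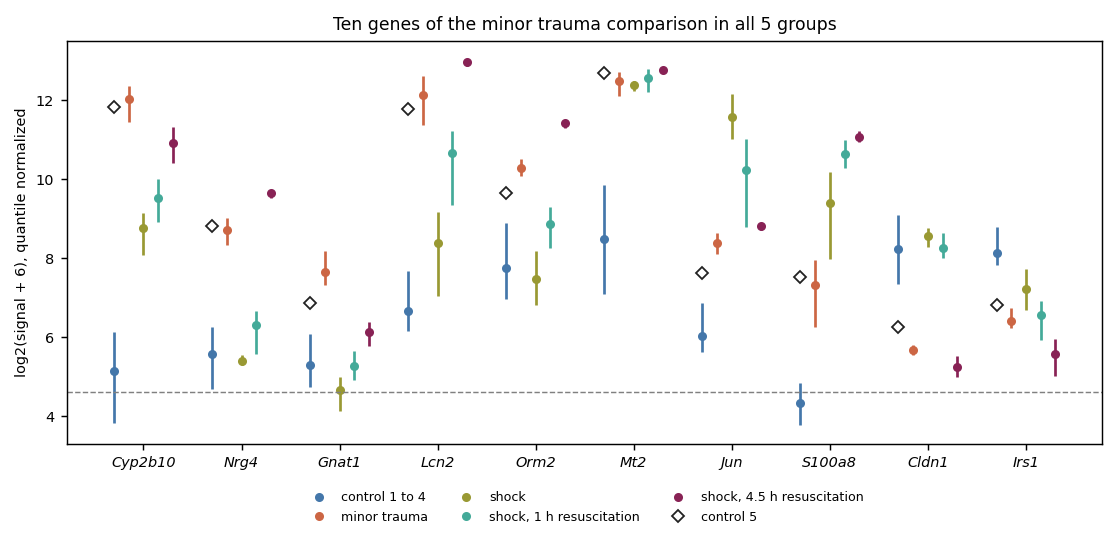
Genes of the minor trauma comparison in all groups, as log2(signal + 6) after quantile normalization (y axis); points are group means, vertical lines run from the lowest to the highest array, the open diamond is control 5, drawn apart from control arrays 1 to 4, and the dashed line is the array median of 4.60. Mean Gnat1 is highest in minor trauma, and mean Jun at the end of shock.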

How the data were processed

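The deposited values were signal intensities of 45101 probe sets on 20 arrays, produced by the authors in MAS5 according to the submitters' processing notes (version not given there), without a common scale. Signals were turned into log2(signal + 6), the pseudocount being at the percentile 26.2 of all signals, and quantile normalized over the 20 arrays. A gene was tested where at least 3 arrays of the fit lay above their array median, through its probe set with 1 gene symbol (34945 probe sets; 932 had several symbols, 9160 none and 64 were controls). Where a gene had several, the one with the highest mean over the arrays of the fit stood for it. Group means were fitted with limma 3.58.1 in R 4.3.3 over all 20 arrays, with eBayes and an intensity trend, and p values were adjusted by Benjamini-Hochberg. Tests were checked on simulated data. The number of arrays limits the precision.

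Of 914 genes in 47 lists, 833 had a probe set and 790 were tested. The comparison and the lists were chosen with earlier results of these data known. Named genes are the 15 largest changes in each direction in both fits, the 10 largest in each direction without overlap, the 10 largest in each direction called only without control 5, and up to 6 called members of each list. In a list without a call the 2 members with the smallest p were named. Other genes named, such as Il6, Fos, Atf3, Cxcl2, G6pc, Hmox1, Vcam1, Lbp and Nr3c1, were chosen after their values were seen. Same-numbered arrays of the 2 groups did not deviate together (correlations 0.03, -0.00 and 0.00), so the numbers were not taken as pairs. Alternatives covered the scaling, pseudocount, filter, arrays in the fit, blocks, weights, probe-set rule and each array left out.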

Additional observations from a re-analysis of the deposited data

Results flagged for a closer look

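Among the 5 control arrays, Dixon's ratio (the gap between the extreme array and its nearest neighbour, over the whole range) passed its 95% critical value for 26 of the 237 genes followed. Chance flags about 1 in 20 groups. Control 5 was the extreme array for 21 of the 26, control 1 for 4 and control 2 for 1. Over all genes tested, control 5 was the extreme array for 300 (2.34%), beside 148 (1.15%) for control 1, 137 (1.07%) for control 2, 99 (0.772%) for control 3 and 160 (1.25%) for control 4.

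With control 5 as the extreme array, the ratio among acute phase, cytokine receptor and neutrophil genes was 0.737 for Apcs, 0.730 for Lcn2, 0.737 for Il1r1, 0.740 for Osmr, 0.711 for S100a8 and 0.823 for S100a9. Among stress response genes it was 0.755 for Bag3, 0.769 for Bhlha15, 0.726 for Dnajb9, 0.716 for Eif2ak3, 0.712 for Gadd45a and 0.755 for Hmox1. Among junction, bile acid, coagulation and other genes it was 0.748 for Cldn3, 0.790 for Marveld2, 0.833 for Fgfr4, 0.782 for Klkb1, 0.797 for Thbd, 0.868 for Depp1, 0.755 for Nr2f6, 0.730 for Tacc2 and 0.825 for Zfp467. The genes followed were partly chosen for differing between the groups or being called only without control 5, which favours genes of this kind, so their tally by array is a description.

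Control 1 was the extreme array for Csrnp1 (0.845), G6pc (0.775), Jund (0.721) and Slc39a8 (0.798), and control 2 for Spaca4 (0.743).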

How the results depend on the processing

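With all arrays the count of 441 called genes moved to 231 on the signals as deposited, 724 after median centring, 264 without a filter on dim probe sets (of 18193 tested), 268 without the intensity trend, 208 and 0 in the high and low dap sets, 796 without control 5 and minor trauma 3, and 0 when the 8 arrays alone were fitted by limma (1575 of 11653 at an unadjusted p under 0.05). With the replicate block it was 1143, although the numbers do not pair the arrays. Control 5 is the only array numbered 5, so its block term removes it from this contrast. That run is thus close to the fit without control 5 and is not a separate alternative. Leaving out 1 array gave 0 to 1220. Without control 5 the count of 1220 moved to 431 on the signals as deposited, 360 with the 7 arrays alone, 208 and 162 in the dap sets and 796 without minor trauma 3, was 1143 with the replicate block, and ran from 796 to 1609 with 1 more array left out. The cause of the other shifts was not tested. None of the 96 genes called with all arrays among the 237 followed changed sign under any alternative run. The sign turned for 10 genes that were not called with all arrays; Cldn12, Cth, F13b and F5 among them were called without control 5. Alas2 came to -0.10 with the replicate block, -0.39 in the low dap set, -0.20 with array weights, -0.32 without control 5 and minor trauma 3, and -0.22 to 0.22 with 1 array left out. Apoc3 came to 0.16 as deposited and 0.10 after median centring, Ckm to -0.12 with probe sets averaged, Klf1 to -0.14 in the low dap set and Pax5 to 0.0041 with array weights. As deposited, Cldn12 came to 0.015, Cth to 0.040, F13b to 0.035, F5 to 0.017 and Hc to 0.0084. The beta-actin ratio difference turned to 0.016 without control 5 (range -0.14 to 0.016), and the median signal to -0.0038 without control 2 (range -0.0038 to 0.18). Low signal limits what dim genes can show: 9 named genes had a group at or below the array median on every array.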
